A study of Danio rerio with 3 samples.

Results

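The genes described here are the positive arm of the circadian clock and the factors that repress it directly. They are clocka, clockb, npas2, bmal1a, bmal1b and bmal2, called the activators below, and bhlhe40, bhlhe41, ciarta and ciartb, called the repressors. The genes were chosen by name, with earlier results of these data known. All 10 were found among the 19260 genes named on the array, each with 1 probe set. CLOCK and BMAL are transcription factors of the bHLH-PAS family that pair and switch on genes carrying an E-box, a short promoter motif; among the genes they switch on are per, cry and nr1d genes and the repressors themselves. NPAS2 is a relative of CLOCK that can take its place beside BMAL1, and in the mouse it is prominent in the forebrain. The bHLH factors BHLHE40 and BHLHE41 compete for the same E-boxes, and CIART binds BMAL1 and silences the pair. In zebrafish, clocks in many tissues are set by light that reaches the cells directly, and several of these genes exist as 2 copies from the genome duplication of teleost fish.

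Brain RNA of zebrafish aged 6 months, kept as adults at 28 °C, was measured on 1 array for each of 3 conditions. The sleep-deprived fish had spent 3 days in extended light, 24 h of it each day and 0 h of dark. The fear-conditioned fish, also titled learning-trained, were trained by inhibitory avoidance learning, which teaches an animal to hold back from a step that was punished before; for them the sources used here give no light schedule. The naive fish, tagged as control, had 14 h of light from 8:00 and, from 22:00, 10 h of dark. The sources used here give neither strain, sex, number of fish per array nor hour of sampling. Transcripts of clock genes cycle over the day, so an effect of treatment and one of the hour of sampling cannot be told apart. The sleep-deprived fish also had more hours of light than the naive fish, so effects of lost sleep and of added light cannot be told apart either. With 1 array per condition no difference has a replicate check, and the text gives no p-value; the number of arrays limits the precision.

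Values are log2 signals as deposited, and differences are log2 differences between 2 arrays. A signal was called dim under 3.45, the lower quartile of all values; 17958 genes reached that limit on at least 1 array, and the lowest signal of any of the 10 clock genes, 5.84 for bmal2, lay well above it. Over all probe sets the arrays had the same median of 4.99, and 34.2% of all genes kept had exactly the same value on all 3 arrays. Of the neuronal markers, elavl3, snap25a and 7 others were measured, with mean signals of 9.93 on the sleep-deprived, 9.93 on the fear-conditioned and 9.89 on the naive array and none of them dim on any array.

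On the sleep-deprived array all 6 activators had their lowest signal of the 3 arrays, and 3 of 4 repressors, bhlhe41, ciarta and ciartb, had their highest. Over all genes kept, the sleep-deprived array was the lowest of the 3 for 23.5% and the highest for 16.1%. The clockb difference from naive was -0.0092, and it turned to 0.035 when each array was centred on its median over the named genes kept. Those of clocka and bmal2 were -0.10 and -0.09, sizes reached or passed by 32.5% and 33.7% of all genes kept. None of the 10 genes was 1.5-fold apart between the sleep-deprived and naive arrays. At that threshold 0.484% of all genes kept were higher and 2.43% lower, so a count of 0 among 10 says little about these genes. The gene that varied most was npas2, which was low on the sleep-deprived array and high on the fear-conditioned one, 2.04-fold apart. The repressor bhlhe40 had the same value on every array, as did 34.2% of all genes kept.

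**Figure D1:**
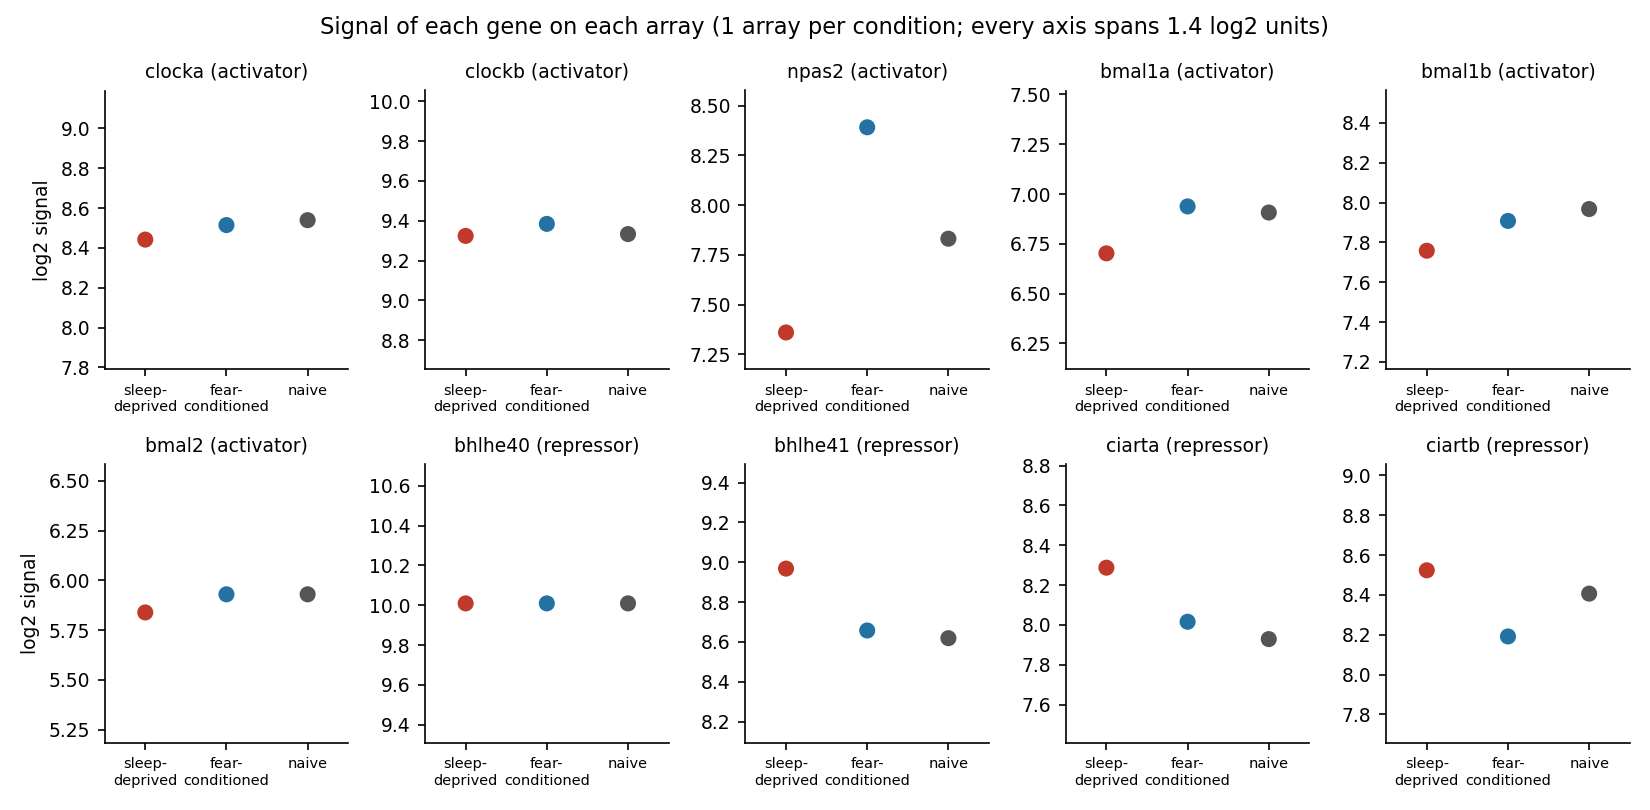
Log2 signal (vertical axis) of each of the 10 genes on the sleep-deprived, fear-conditioned and naive arrays (horizontal axis, 1 point per array). Axes differ in position but all span 1.4 log2 units, so distances can be compared between panels; npas2 covers 1.03 units and bhlhe40 none.

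Among the partners of BMAL, npas2 had signals of 7.36 on the sleep-deprived array, 8.39 on the fear-conditioned array and 7.83 on the naive array. The sleep-deprived array was thus the lowest and the fear-conditioned the highest, with naive between them. The log2 difference was -0.47 for sleep-deprived over naive (1.39-fold lower), a size reached or passed by 4.79% of all genes kept, and 0.56 for fear-conditioned over naive (1.47-fold higher), reached or passed by 1.83%. Both are taken against the same naive array and are not independent. The direct difference between the treated arrays, sleep-deprived over fear-conditioned, was -1.03. It was -0.98, just short of 2-fold, after each array was centred on its median over the named genes kept. Beside npas2, 35 other genes of 17957 (0.195%) were at least as low on the sleep-deprived and at least as high on the fear-conditioned array, both relative to naive. Since npas2 was picked for this count as the widest-ranging of the 10 genes on these same arrays, the share does not measure how unusual it is.

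The clock genes themselves stayed closer together. clocka had signals of 8.44 on the sleep-deprived, 8.51 on the fear-conditioned and 8.54 on the naive array, a difference of -0.10 for sleep-deprived over naive. Its copy clockb had 9.32 on the sleep-deprived, 9.38 on the fear-conditioned and 9.33 on the naive array, and its difference for sleep-deprived over naive, -0.0092, turned to 0.035 with centring. Differences of that size or larger were common, held by 32.5% of all genes kept for clocka and 53.7% for clockb. Relative to clocka on the same arrays, npas2 was 0.37 lower in the sleep-deprived over naive difference and 0.58 higher in the fear-conditioned over naive difference, and all 3 genes encode partners of BMAL.

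The bmal genes were lower on the sleep-deprived array and nearly level on the other 2. bmal1a had 6.70 on the sleep-deprived array, 6.94 on the fear-conditioned array and 6.91 on the naive array. bmal1b had 7.76 on the sleep-deprived, 7.91 on the fear-conditioned and 7.97 on the naive array. These copies had almost the same difference for sleep-deprived over naive, both -0.21, and their differences lay 0.0044 apart. Differences of that size or larger were found for 17.9% (bmal1a) and 17.5% (bmal1b) of all genes kept. For fear-conditioned over naive they were 0.031 for bmal1a and -0.060 for bmal1b. The third BMAL gene, bmal2, had 5.84 on the sleep-deprived array and 5.93 on both others. Its fear-conditioned and naive values were exactly equal, as for 46.2% of all genes kept.

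Of the repressors, 3 of 4 were highest on the sleep-deprived array, and bhlhe40 was level. bhlhe41, whose human counterpart carries a variant linked to short sleep, had 8.97 on the sleep-deprived array, 8.66 on the fear-conditioned array and 8.62 on the naive array. Its difference for sleep-deprived over naive was 0.35, a size reached or passed by 8.52% of genes, against 0.039 for fear-conditioned over naive. Its relative bhlhe40, an early-response gene in many mammalian cells as well as a clock gene, stood at 10.01 on each array. Such an exact tie on all 3 arrays was found for 34.2% of all genes kept. The differences of bhlhe41 and bhlhe40 for sleep-deprived over naive thus lay 0.35 apart. That gap takes the tie of bhlhe40 as a difference of 0, and how such ties arose was not tested.

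ciarta had 8.29 on the sleep-deprived array, 8.02 on the fear-conditioned array and 7.93 on the naive array, and a difference of 0.36 for sleep-deprived over naive (8.19% of genes at least as far from 0). ciartb had 8.52 on the sleep-deprived, 8.19 on the fear-conditioned and 8.41 on the naive array. Its difference for sleep-deprived over naive was 0.12, a size reached or passed by 29.2% of genes. Both ciart copies were highest on the sleep-deprived array, but they parted on the fear-conditioned one, where ciarta was 0.087 higher and ciartb 0.22 lower than on the naive array. No other gene among the 10 was as far below naive on the fear-conditioned array as ciartb.

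In the sleep-deprived over naive comparison, 6 of 6 activators were lower by any amount, beside 30.9% of all genes kept, and 3 of 4 repressors were higher, beside 24.8%. Many genes are exactly tied: of the 10002 genes that differed at all between these arrays, 55.6% were lower on the sleep-deprived array. After centring, 5 activators were lower, since clockb changed sign, and all 4 repressors were higher, since bhlhe40 moved from 0 to 0.044. Centring added 0.044 to every difference here, so the 44.3% of all genes kept that were tied between these arrays also became higher. The shares of 30.9% and 24.8% hold before centring only. The median difference was -0.15 over the activators and 0.23 over the repressors, beside 0 over all genes kept, whose quartiles were -0.045 and 0. The activator median lay 0.38 below the repressor median, a gap that centring cannot change because it adds the same amount to every difference. At 1.5-fold, 0 of 10 genes were higher and 0 lower, beside 0.484% and 2.43% of all genes kept. At a lower threshold of 0.32 on the log2 scale, bhlhe41 and ciarta were higher and npas2 lower, beside 2.52% and 7.2% of genes.

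**Figure D2:**
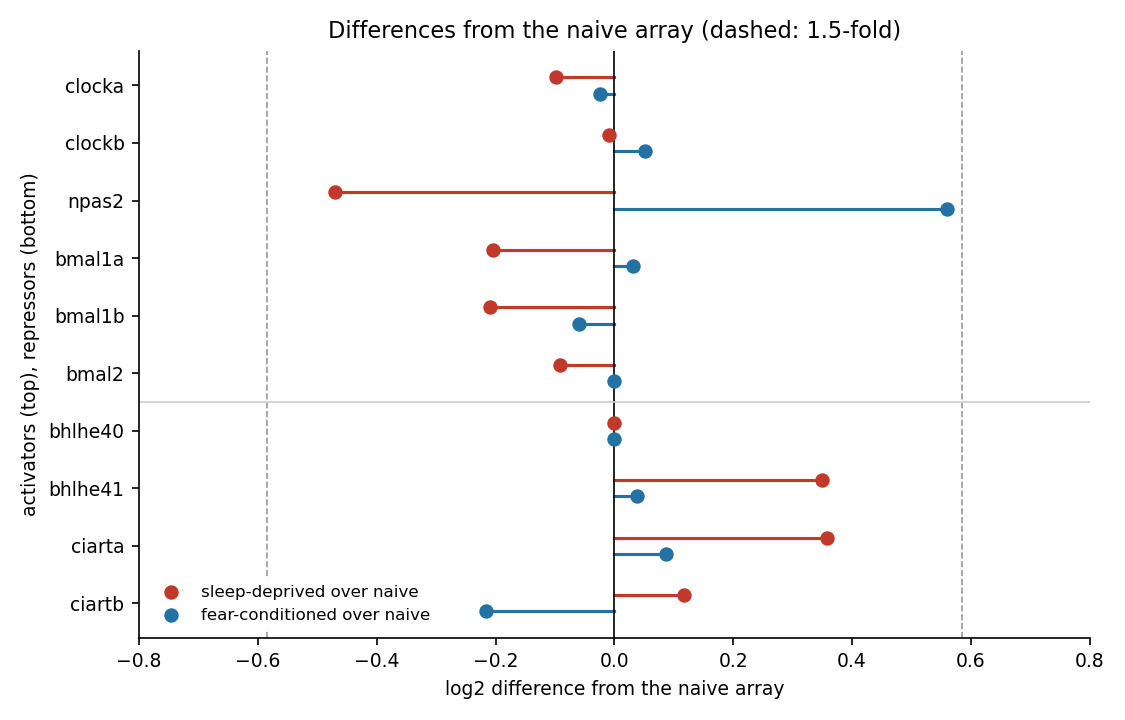
Log2 difference from the naive array (horizontal axis) for each gene (vertical axis), with the sleep-deprived array in red above the fear-conditioned array in blue; dashed lines mark 1.5-fold. Red points of the 6 activators lie left of 0 and those of bhlhe41, ciarta and ciartb right of it, and no point passes a dashed line.

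The fear-conditioned over naive comparison had no such split by role. Of the activators 3 were higher, 2 lower and 1 equal, and of the repressors 2 were higher, 1 lower and 1 equal; over all genes kept, 30.6% were higher and 23.2% lower. The medians were 0.015 over the activators and 0.019 over the repressors. At 1.5-fold, 0 of 10 genes were higher and 0 lower, beside 0.83% and 0.763% of genes. At the lower threshold only npas2 was higher, beside 3.06%, and 0 of the 10 were lower, beside 3.1%. Apart from npas2 and ciartb, the genes lay within 0.09 of naive, from -0.060 for bmal1b to 0.087 for ciarta.

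Sleep-deprived over fear-conditioned is the first difference minus the second and adds no independent measurement. All 6 activators were lower, beside 34.5% of genes, and 3 of 4 repressors higher, beside 23.1%. With centring the counts were 6 and 4. The 42.4% of genes tied between these arrays then also became higher, so the 2 shares hold before centring only. The median was -0.12 over the activators and 0.29 over the repressors. npas2 alone passed 1.5-fold downwards, as did 2.71% of all genes kept, and also 2-fold, as did 0.869%. No gene of the 10 was 1.5-fold higher, beside 0.562% of genes. At the lower threshold the count was 1 higher, ciartb at 0.33, beside 2.52%, and 1 lower, npas2, beside 7.28%.

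**Figure D3:**
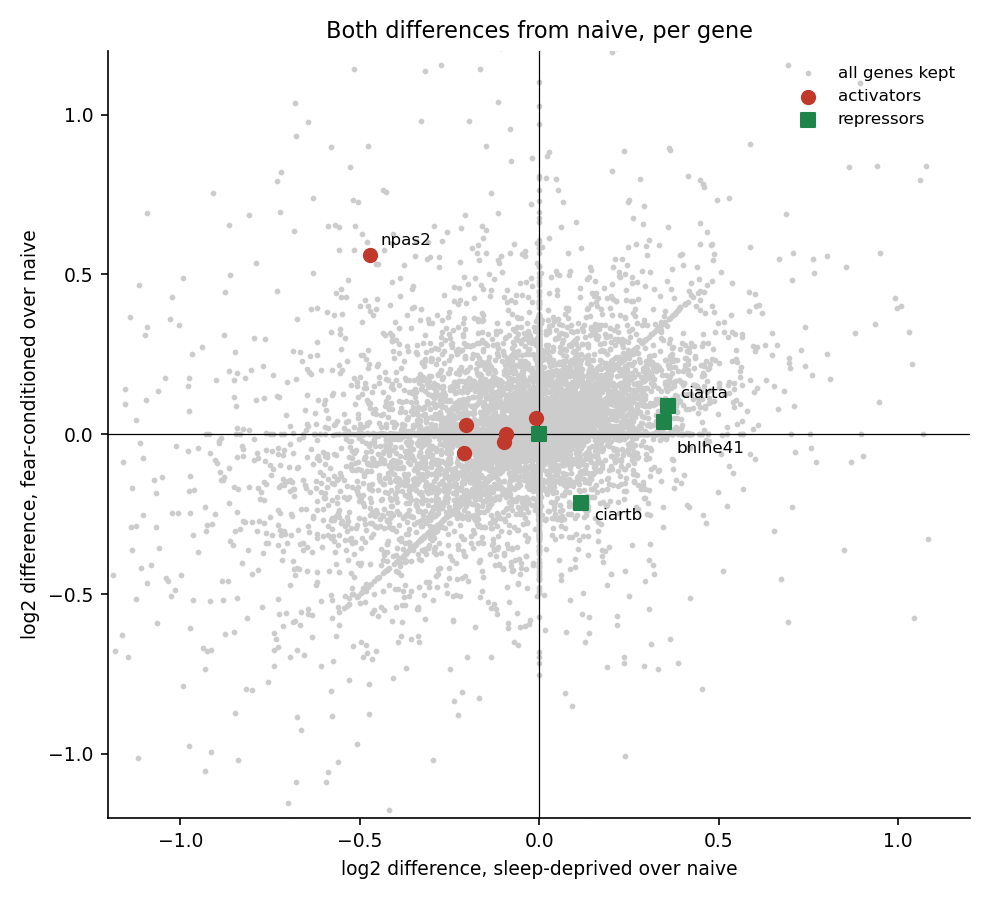
Log2 difference of sleep-deprived over naive (horizontal axis) and of fear-conditioned over naive (vertical axis) for all 17958 genes kept (grey), the activators (red circles) and the repressors (green squares). The naive array enters both axes, and 122 genes beyond 1.2 on either axis are not drawn. npas2 lies at upper left, at -0.47 and 0.56, and ciarta and bhlhe41 lie at right, close to 0 on the vertical axis.

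The 3 named genes whose differences from naive lay nearest to those of npas2, the widest-ranging of the 10, were gclc, eif4eb and tuba5. gclc encodes the catalytic subunit of the enzyme that starts glutathione synthesis, and it had differences of -0.46 for sleep-deprived over naive and 0.53 for fear-conditioned over naive. For eif4eb, a gene of the cap-binding translation factor family, they were -0.43 and 0.58. For the tubulin gene tuba5 they were -0.48 and 0.60. The distances, taken over these 2 differences, were 0.031, 0.042 and 0.043 log2 units. With 3 arrays such likeness rests on 2 numbers per gene.

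In the RefSeq gene table for assembly GRCz12tu, bmal2 and bhlhe41 lie on the same chromosome with 12 protein-coding genes between them, yet their differences for sleep-deprived over naive were -0.09 and 0.35. Each bmal1 copy has a btbd10 copy as a neighbour, btbd10a at -0.020 and btbd10b at -0.039 in that comparison, beside -0.21 for both bmal1 genes. Of the 20 nearest protein-coding neighbours of the 10 genes, 16 were measured, and 1 was at least 1.5-fold apart from naive on either array: the cathepsin D gene ctsd, next to bhlhe41, at -1.19 on the sleep-deprived array. Just under 1.5-fold was si:ch211-245j22.3, next to bmal2, at 0.57 for sleep-deprived over naive. All neighbours were looked up after the values of the 10 genes were seen.

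Among genes that CLOCK and BMAL switch on and that close the loop, the period genes were higher on the sleep-deprived than on the naive array, 4 of 4, beside 24.8% of all genes kept. Of 5 cryptochrome genes, 1 was higher, 2 lower and 2 equal. Of 9 period and cryptochrome genes, 1 was at least 1.5-fold higher and 0 lower than on the naive array, with a median of 0.024. That gene, per3, had 9.75 on the sleep-deprived, 9.28 on the fear-conditioned and 9.02 on the naive array. per1a differed by 0.54, per1b by 0.26 and cry3b by -0.35. On the fear-conditioned array none of the 9 was 1.5-fold from naive, and per2, a gene that light induces in zebrafish, had the largest difference, 0.50, against 0.084 on the sleep-deprived array. For fear-conditioned over naive, per3 was at 0.26, per1b at 0.18 and per1a at -0.12.

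The second loop consists of nuclear receptors that act on bmal transcription, with REV-ERB proteins repressing it and ROR proteins activating it. Of 9 such genes, 0 were 1.5-fold higher and 1 was lower on the sleep-deprived array, rorcb at -0.65, beside 0.484% and 2.43% of all genes kept. By any amount, 6 were higher and 3 lower than on the naive array, with a median of 0.049. nr1d2a, a Rev-erb gene, was at -0.51, and its copy nr1d2b at 0.26. nr1d1, another Rev-erb gene, had 9.72 on the sleep-deprived array, 8.97 on the fear-conditioned array and 9.40 on the naive array. Its difference for sleep-deprived over naive was 0.32. On the fear-conditioned array none of these genes was 1.5-fold from naive, nr1d1 at -0.44 and nr1d4b at -0.28 being the farthest.

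Output genes of the PAR bZIP and nfil3 families, which encode activators and repressors of the same D-box motif, differed more. Of 11 genes, 0 were higher and 2 lower at 1.5-fold on the sleep-deprived array, with a median of -0.069. The 2 lower genes were nfil3-5 at -1.14 and nfil3-2 at -0.79. By any amount, 2 of the 11 were higher, 7 lower and 2 equal. The 2 higher ones were the PAR bZIP genes dbpa at 0.39 and dbpb at 0.34. nfil3-6 had the npas2 pattern, with -0.56 for sleep-deprived over naive and 0.58 for fear-conditioned over naive. Other nfil3 genes had the same signs. In these comparisons nfil3 was at -0.35 and 0.45, nfil3-5 at -1.14 and 0.37, and nfil3-2 at -0.79 and 0.11. nfil3-4, close to the dim limit at 3.49, was equal on every array. On the fear-conditioned array 1 of the 11 was 1.5-fold higher, hlfb at 0.59.

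The next lists hold genes of proteins that modify clock proteins or work with CLOCK and BMAL. Of 16 genes of casein kinases, F-box proteins and other modifiers, 1 was 1.5-fold lower on the sleep-deprived array, fbxl3l at -0.76, and 0 were higher, and none was 1.5-fold from naive on the fear-conditioned array. Of 19 coregulators none was 1.5-fold from naive on either array. The farthest was cipca, whose mammalian counterpart encodes an inhibitor that binds CLOCK, with 7.97 on the sleep-deprived, 7.02 on the fear-conditioned and 7.45 on the naive array. Like nr1d1 and ciartb, it was highest on the sleep-deprived array and lowest on the fear-conditioned one, 0.94 apart on the log2 scale, the only coregulator past 1.5-fold between these arrays.

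The wider protein families had medians of 0 for sleep-deprived over naive, with many exact ties. By any amount, 2 of 20 other bHLH-PAS genes were higher, 9 lower and 9 equal. Among 18 bHLH-Orange and Id genes, 2 were higher, 8 lower and 8 equal. Over all genes kept, 24.8% were higher and 30.9% lower. Of 20 other bHLH-PAS genes, 0 were 1.5-fold higher and 2 lower on the sleep-deprived array. They were hif1al2, a hypoxia-inducible factor gene, at -1.45, and npas4a, induced by neuronal activity, at -1.26. On the fear-conditioned array hif1al2 alone passed 1.5-fold, at -0.86. Of 18 genes of the bHLH-Orange and Id families, to which bhlhe40 and bhlhe41 are related, none was 1.5-fold from naive on either array, id3 at -0.41 on the sleep-deprived and id1 at 0.36 on the fear-conditioned array being the farthest.

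**Figure D4:**
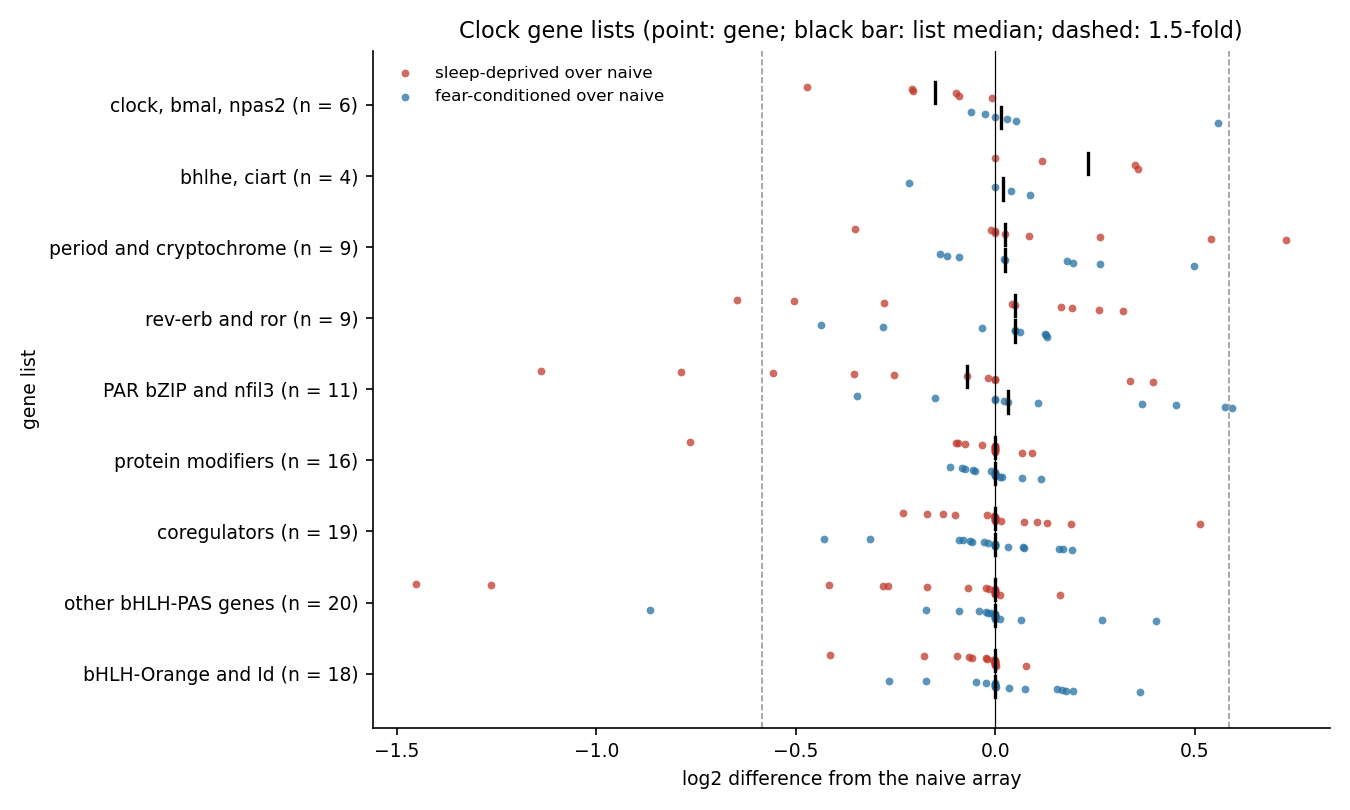
Log2 difference from the naive array (horizontal axis) for genes of 9 lists (vertical axis), sleep-deprived in red above fear-conditioned in blue; points are genes, black bars list medians and dashed lines 1.5-fold. On the sleep-deprived array the 6 activators lie below 0 (median -0.15), and 3 of 4 repressors lie above it, with bhlhe40 at 0 (median 0.23), while the widest scatter belongs to the nfil3 and other bHLH-PAS genes.

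Some markers of cell types differed between the same arrays by more than any of the 10 clock genes did. In bulk tissue, fewer cells of a type and less RNA per cell cannot be told apart. All 9 measured markers of the pineal organ and photoreceptors, a site of a strong clock in fish, were higher on the sleep-deprived than on the naive array, led by exorh at 1.30 and pde6gb at 1.04. For fear-conditioned over naive, 4 of the 9 were higher, 2 lower and 3 equal, and otx5 passed 1.5-fold downwards at -1.01. The mean signal of the 9 markers was 6.12 on the sleep-deprived, 5.54 on the fear-conditioned and 5.60 on the naive array. All 8 microglia and macrophage markers were lower on the sleep-deprived than on the naive array. Their means were 7.49 on the sleep-deprived, 7.86 on the fear-conditioned and 8.11 on the naive array. For fear-conditioned over naive 7 of these 8 were lower too, mpeg1.1 at -0.73 among them, and ptprc was higher at 0.86. Over all genes kept, 24.8% were higher and 30.9% lower for sleep-deprived over naive, and 23.2% were lower for fear-conditioned over naive. Radial astroglia markers were mixed on the sleep-deprived array, with 3 of 8 higher, 4 lower and 1 equal and a median of -0.072; 3 passed 1.5-fold downwards, nes at -2.36, gfap at -0.91 and cyp19a1b at -0.87, while gfap was at 0.76 on the fear-conditioned array. Of 6 skin and epithelium markers, 5 were at least 1.5-fold higher on the fear-conditioned array, krt5 at 1.81 among them, with means of 5.47 on the sleep-deprived, 7.04 on the fear-conditioned and 5.98 on the naive array. No oligodendrocyte marker of 5 was 1.5-fold from naive on either array; of blood cell markers 1 of 4 (hbba2 at 0.89) and of skeletal muscle markers 2 of 5 (pvalb2, and ckma at 1.21) were so, on the fear-conditioned array; pvalb2 lay close to or under the dim limit on the other arrays, which leaves its difference without a firm size. The part of these cell types in the differences of npas2, bhlhe41 and the others was not tested.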

How the data were processed

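One array of brain RNA per condition was used, grouped from the labels. Per the labels' protocols, Trizol was used to extract RNA, and sense cDNA was fragmented and then labelled with biotin. The authors deposited 1 value for each of 75212 probe sets and array, read here as log2 signal from its range; the sources used here state neither the base of the logarithm nor the normalization, and equal medians show that arrays were scaled to each other. A shift of all genes together therefore cannot be seen. Of the probe sets, 20806 had 1 gene symbol in the platform annotation, 855 had several (not used) and 53551 were unnamed; 20323 symbols were updated through Entrez identifiers with RefSeq's GRCz12tu table, and 483 were kept as annotated. Probe sets of a gene were averaged, and 1302 genes that stayed under the dim limit of 3.45 on every array were left out. Array annotation gives no genome build here, so no coordinates are printed.

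Log2 differences were taken as deposited and counted at 1.5-fold (0.58 on the log2 scale), at 0.32 and at 2-fold with Python 3.11.15 and pandas 2.3.3; the counting was tested on simulated data. A test needs replicates, which these groups lack. Members and lists were chosen with earlier results of these data known. Text names all 10 members, the 3 genes nearest to the widest-ranging member, and the genes of each other list with the largest differences. Some other genes of the lists are named beside them.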

Additional observations from a re-analysis of the deposited data

How the results depend on the processing

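Counts at the threshold, medians and differences of the 10 genes were recomputed with each array centred on its median, after quantile normalization, with a lowess trend on level removed (fraction 0.3), with a gene's brightest probe set instead of the mean, without a filter on dim genes, with dim genes cut off at the overall median, and with dim values set to the limit. The last 4 of these could not move any of the 10 genes, which have 1 probe set each and lie above every dim limit used. Under the other 3, none of the 90 recomputed differences moved by 0.1 or more (largest shift 0.049). Centring adds the same amount to every gene of a comparison, at most 0.049, so it could not reach that limit. The differences of clocka, clockb, bmal2 and bhlhe40 for sleep-deprived over either other array were themselves smaller than 0.1 in size. So were all those for fear-conditioned over naive except npas2 and ciartb. For sleep-deprived over naive, centring took clocka from -0.098 to -0.053 and bmal2 from -0.091 to -0.047, and clockb changed sign. The activator median in that comparison went from -0.15 to -0.11. The other clock lists, markers, neighbours and genes resembling npas2 were not recomputed. With a threshold of 0.32 on the log2 scale in place of 1.5-fold, the counts became 2 higher and 1 lower for sleep-deprived over naive, 1 higher for fear-conditioned over naive, and 1 higher for sleep-deprived over fear-conditioned; with 2-fold they did not move. Counts of direction in sleep-deprived over naive, added after the data were seen, were 5 or 6 of the 6 activators lower and 3 or 4 of the 4 repressors higher. The shares over all genes kept are given only for the values as deposited. No replicate could be left out, and no paired analysis was possible because each group has 1 array. Signals of all 10 genes lay above the dim limit, which is not a measured background.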
